A study of Mus musculus with 6 samples.

Results

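The D-type cyclins Ccnd1, Ccnd2 and Ccnd3, their kinases Cdk4 and Cdk6, and the CDK inhibitors Cdkn1a, Cdkn1b, Cdkn1c, Cdkn2c and Cdkn2d were examined in mouse gastrointestinal stromal tumours (GIST) after imatinib. The 10 genes were taken by name from the 31492 gene-level rows of the array data. They are read by 23 probes, of which 19 passed the detection filter, and 9 of the 10 genes entered the test among 14713 genes. Cdk6 did not, because its single probe was detected on 1 of 6 arrays.

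A vehicle group of 3 tumour samples was compared with an imatinib group of 3, each sample on its own Illumina beadchip array. Imatinib, an inhibitor of the kinases KIT, ABL and PDGF receptor, or the vehicle was injected into the peritoneum, and the labels give neither dose nor length of treatment. Both groups carried the Kit V558Δ/+ genotype on the C57Bl/6 strain at 6 weeks of age, so every sample has the mutant Kit allele and none is normal gut. Whether the 3 samples of a group are 3 animals is not in the labels, so a p-value here reflects variation among these samples that may be technical. Of the tumour's defining markers, Kit, Etv1, Gpr20, Prkcq and Cd34 were detected, and no probe is named for Ano1. The log2 signal of Kit was 14.24 ± 0.20 in the vehicle group and 13.94 ± 0.50 in the imatinib group (SD, n = 3). The 5 markers had summed signals of 28400 to 35500 with vehicle and 20200 to 36800 with imatinib, and none was called. Kit and Etv1 were the brightest of them. With imatinib the mean was lower in 3 and higher in 2. Groups did not overlap in Prkcq (1.72-fold lower) and Cd34 (1.26-fold higher), and Gpr20 was 1.48-fold lower with overlap. Over all genes, groups did not overlap in 14.5% that were lower and 17.4% that were higher.

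D-type cyclins are made in response to growth signals, bind CDK4 or CDK6, and start the phosphorylation of the retinoblastoma protein that releases E2F factors and lets a cell pass from G1 into S phase. INK4 inhibitors such as the products of Cdkn2c (p18) and Cdkn2d (p19) bind CDK4 and CDK6 themselves, whereas the CIP/KIP inhibitors encoded by Cdkn1a (p21), Cdkn1b (p27) and Cdkn1c (p57) bind complexes of cyclins with CDKs and hold back CDK2 above all. In GIST the KIT receptor is the common source of the growth signal, and loss of INK4 genes is a known step of progression in human tumours.

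The sequences upstream of Ccnd3, the called D-type cyclin with promoter windows in the RefSeq table, are shown with that of Cdk4, its kinase. The table (GRCm38.p6) gives 10 windows for 7 of the 10 genes, and those of Ccnd1, Ccnd2 and Cdkn1c are not shown. Both Ccnd3 start sites are printed, 250 bases before the start, 5′ to 3′ on the strand of the gene. Capitals mark a forkhead match (TGTTTAC), an ETS match (CCGGAAG), the core of a cAMP response element (TGACGT) and E-boxes (CACGTG), searched on both strands, and no marked match overlaps another.
Ccnd3, first start, chr17:47504801-47505050, plus strand: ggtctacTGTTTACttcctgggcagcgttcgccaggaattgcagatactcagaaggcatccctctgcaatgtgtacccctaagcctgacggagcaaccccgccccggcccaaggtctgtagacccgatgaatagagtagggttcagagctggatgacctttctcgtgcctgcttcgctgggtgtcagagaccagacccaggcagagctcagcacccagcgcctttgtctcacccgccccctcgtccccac
Ccnd3, second start, chr17:47593217-47593466, plus strand: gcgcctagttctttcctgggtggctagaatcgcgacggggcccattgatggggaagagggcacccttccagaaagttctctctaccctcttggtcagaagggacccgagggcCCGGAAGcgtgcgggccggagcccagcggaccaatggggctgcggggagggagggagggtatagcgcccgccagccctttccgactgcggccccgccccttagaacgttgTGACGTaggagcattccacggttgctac
Cdk4, chr10:127063285-127063534, plus strand: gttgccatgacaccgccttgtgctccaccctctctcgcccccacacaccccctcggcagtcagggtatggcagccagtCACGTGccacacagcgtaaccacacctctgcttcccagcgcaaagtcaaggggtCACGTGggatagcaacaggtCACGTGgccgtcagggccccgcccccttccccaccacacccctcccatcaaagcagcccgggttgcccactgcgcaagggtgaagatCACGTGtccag

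The Cdk4 window holds 4 E-boxes, at -172, -118, -98 and -11 from the start, and 6.02% of all 32851 windows hold at least 1. In human cells MYC is known to act on CDK4 through E-boxes in its promoter. Cdk6 has 1 E-box, at -220. The forkhead letters stand in 3.17% of windows, the ETS letters in 6.91% and the cAMP response core in 6.47%. The GC box letters GGGCGG, left in lower case, are in both Ccnd3 windows, in that of Cdk4 and in 32.7% of all windows. A match describes the letters of the window and is no evidence that a factor binds there. The AP-1 letters TGACTCA and the E2F letters TTTCGCGC, TTTGGCGC and TTTCCCGC are in none of the 10 windows, and they occur in 4.46%, 0.256%, 0.417% and 0.895% of all windows.

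With imatinib the D-type cyclins Ccnd1 and Ccnd3 fell 2.36-fold and 2.03-fold and the inhibitor Cdkn1c rose 4.16-fold, while Ccnd2 (2.35-fold lower), Cdkn2c (2.02-fold higher) and Cdkn2d (1.44-fold lower) did not pass the test although their groups did not overlap. Cdk4, Cdkn1a and Cdkn1b had overlapping groups. Fold changes are from the detected probe of each gene with the highest mean signal, and limma's test was adjusted by Benjamini-Hochberg over all 14713 genes, with a threshold of 0.05. Of the 9 tested members 2 were called lower and 1 higher, against 1.05% lower and 0.523% higher of all genes, 1.58% in either direction. Groups did not overlap in 4 members that were lower and 2 that were higher, against 14.5% and 17.4% of all genes. In bulk tissue fewer cells of a type and less RNA per cell cannot be told apart.

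**Figure D1:**
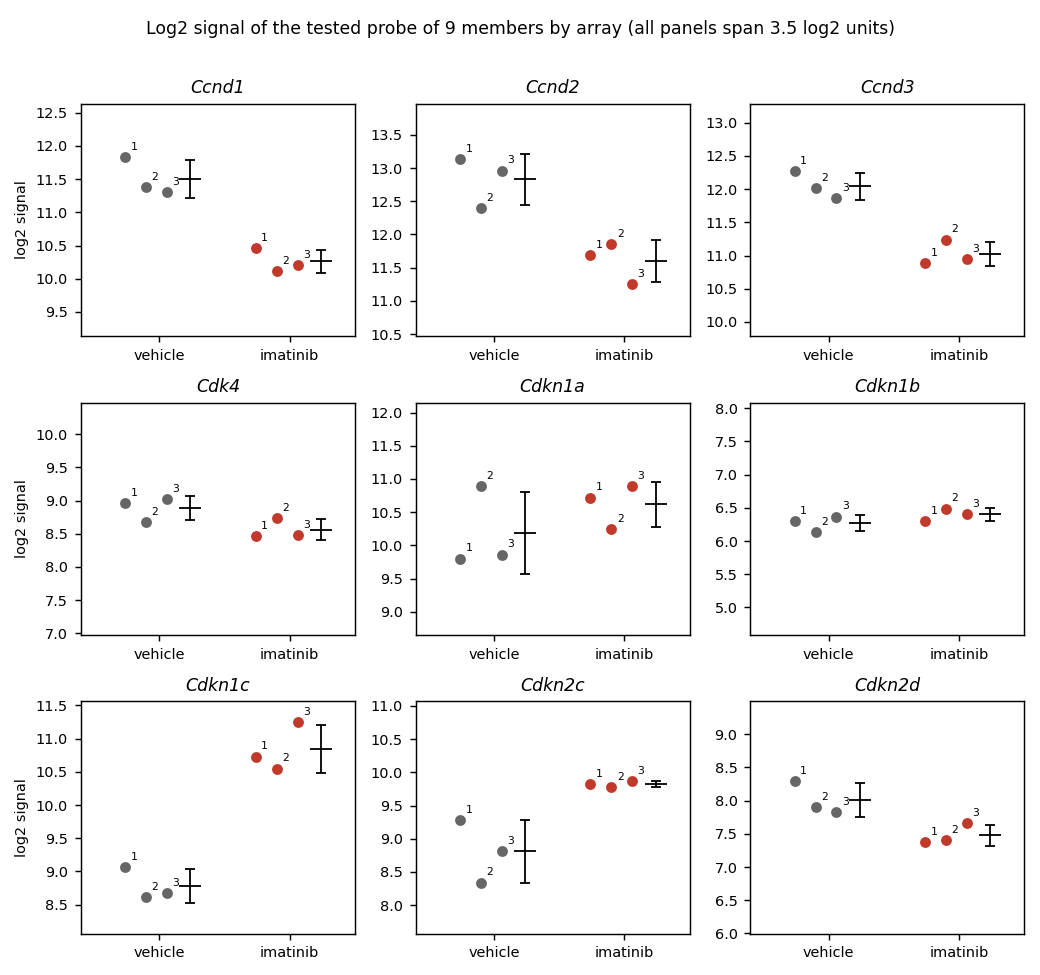
Log2 signal of the tested probe of 9 members on each array, with vehicle in grey, imatinib in red, the replicate number beside each point, and the mean and SD of the 3 arrays as bars. In Ccnd1, Ccnd2, Ccnd3 and Cdkn2d all imatinib points lie below all vehicle points, in Cdkn1c and Cdkn2c above them, and in Cdk4, Cdkn1a and Cdkn1b the groups overlap.

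Among the cyclins, Ccnd1, the D-type cyclin most closely tied to MAPK signalling, had log2 signals of 11.83, 11.38 and 11.31 on vehicle arrays 1, 2 and 3 and 10.46, 10.12 and 10.21 on imatinib arrays 1, 2 and 3. The highest imatinib array lay 0.85 log2 units below the lowest vehicle array. The log2 change was -1.24 ± 0.18 (SE, 95% interval -1.67 to -0.81), with an adjusted p of 0.0417 (limma). The other probes of Ccnd1 gave log2 changes of -1.37 and -1.43, so all 3 probes placed the fall between 2.36-fold and 2.69-fold. In the raw, non-normalized signal of the tested probe, the vehicle arrays read 4021, 2700 and 2642 and the imatinib arrays 1378, 1210 and 1065.

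Ccnd3, the D-type cyclin with a leading role in lymphoid cells, had log2 signals of 12.27, 12.01 and 11.87 with vehicle and 10.89, 11.24 and 10.95 with imatinib. All imatinib arrays again lay below all vehicle arrays. The difference came to -1.02 ± 0.16 on the log2 scale (SE, 95% interval -1.40 to -0.64), with an adjusted p of 0.0454 (limma). Another probe of Ccnd3 differed by -1.14, and the remaining one was detected on all vehicle arrays and on no imatinib array, which makes it at least 2.42-fold lower, with measured means of 6.33 and 4.82.

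Ccnd2, the cyclin known for its role in ovary, brain and B cell growth, had log2 signals of 13.14, 12.40 and 12.96 with vehicle and 11.69, 11.86 and 11.25 with imatinib. Vehicle 2 was the lowest vehicle array and imatinib 2 the highest imatinib array. The log2 change of -1.23 ± 0.25 (SE, 95% interval -1.82 to -0.64) was as large as that of Ccnd1 but had a wider error, and its adjusted p of 0.0587 (limma) missed the threshold. Whether Ccnd2 and Ccnd1 responded differently was not tested. Another probe differed by -1.29, one more by -0.79 with equal rounded values of 8.47 on vehicle 2 and imatinib 2, and the remaining probe was detected on no array.

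**Figure D2:**
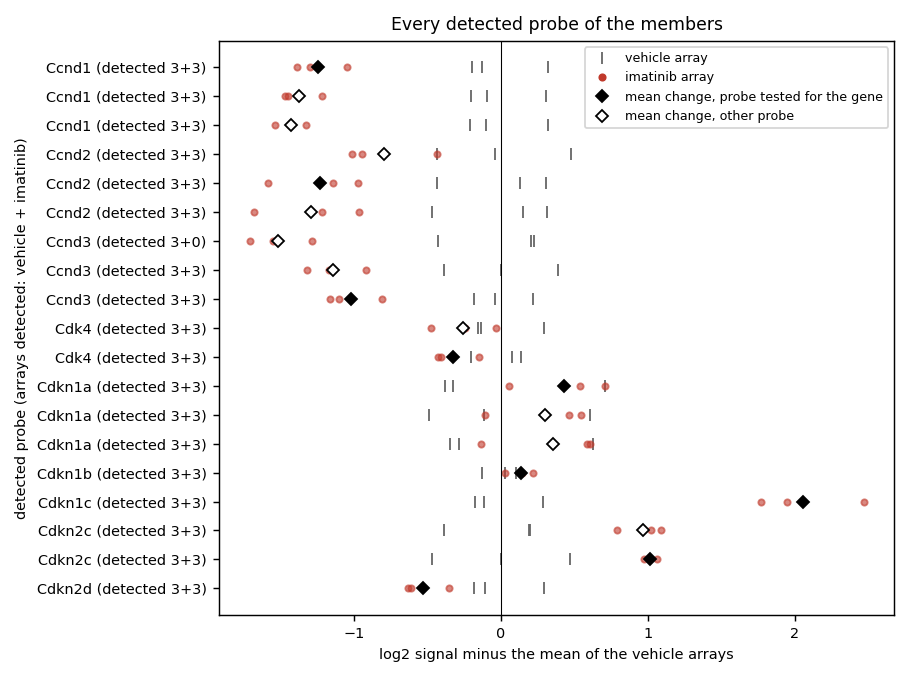
Every detected probe of the members, with the log2 signal of each array set against the mean of the vehicle arrays; grey ticks are vehicle arrays, red points imatinib arrays, diamonds the mean change, filled for the probe tested for its gene. The 3 probes of Ccnd1 and the 3 of Ccnd3 lie left of every vehicle tick, and the single probe of Cdkn1c and both of Cdkn2c lie right of every vehicle tick. Of the Ccnd3 probes, 1 was detected on no imatinib array and passed the filter through the vehicle group alone, so it had to be lower.

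Where a member had several probes detected in both groups, these moved in the same direction. The Ccnd3 probe that no imatinib array detected passed the detection filter through the vehicle group alone, so it had to be lower with imatinib and is left out of the counts that follow. Of the other 18 detected probes, 12 had groups that did not overlap, where the share over all 21395 detected probes was 31.6%. The shares over all probes given here also count probes detected in 1 group only, so the sets compared are not alike. In a fit of every probe on its own, 5 of the 18 passed an adjusted p of 0.05 (limma), namely all 3 of Ccnd1, 1 of Ccnd3 and the probe of Cdkn1c, where the share over all probes was 2.35%. The remaining Ccnd3 probe had an adjusted p of 0.0528. Probes of 1 gene read the same transcripts and are not independent. The standard error over the beads of a detected member probe was 1.49% to 8.26% of its signal, with a median of 3.6% and 27 to 64 beads. It covers the reading of 1 array and not the spread between samples.

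Of the kinases, Cdk4 had log2 signals of 8.96, 8.68 and 9.02 with vehicle and 8.46, 8.74 and 8.48 with imatinib. Imatinib 2 lay above vehicle 2, so the groups overlapped. The log2 change was -0.33 ± 0.14 (SE, adjusted p = 0.212, limma), with a 95% interval of -0.67 to 0.02, and its other probe changed by -0.26. For Cdk6 the signal was above the negative controls on imatinib 3 alone, and no fold is given.

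Cdkn1c, whose product p57 is the CIP/KIP inhibitor needed for cell cycle exit in many tissues of the embryo and which is expressed from the maternal allele, showed the largest change among the members. Its log2 signals were 9.07, 8.61 and 8.67 on the vehicle arrays and 10.73, 10.55 and 11.25 on the imatinib arrays. The lowest imatinib array was 1.48 log2 units above the highest vehicle array. The difference was 2.06 ± 0.22 on the log2 scale (SE, 95% interval 1.52 to 2.59), with an adjusted p of 0.0338 (limma), the smallest adjusted p of the array, which it shared with other genes. Only 22 of the 14713 genes had a larger rise in mean, whether or not they passed.

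Cdkn1a, the classic p53 target that arrests cells in G1, had log2 signals of 9.80, 10.89 and 9.86 with vehicle and 10.72, 10.24 and 10.89 with imatinib. Vehicle 2 was as high as imatinib 3, and the other vehicle arrays were below every imatinib array. Its log2 change was 0.43 ± 0.33 (SE, 95% interval -0.37 to 1.24, adjusted p = 0.433, limma), and without vehicle 2 it was 0.78 (adjusted p = 0.0692). All 3 probes of Cdkn1a had vehicle 2 as the highest vehicle array. Among the vehicle arrays, the marker lists of epithelium, smooth muscle, exocrine pancreas, and enteric glia and neurons were also highest on vehicle 2. After centring each marker, the smooth muscle mean was -0.98, 0.34 and -0.24 on vehicle arrays 1, 2 and 3. Cela1, the only tested pancreas marker, was at -1.26, 0.36 and -0.56. Glia and neurons were at -0.64, -0.29 and -0.64. The mean of the epithelial list was -1.41, 0.68 and -0.30. On the imatinib arrays it was 0.34, 0.20 and 0.49. Of 11 markers, all tested, 10 had a higher and 1 a lower mean with imatinib, with a median log2 change of 1.06. Only the lower one, Olfm4, was called. The summed signal was 7190 to 36900 with vehicle and 29100 to 36100 with imatinib. The part of epithelium, smooth muscle, pancreas, glia or neurons in the values of Cdkn1a was not tested.

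Cdkn1b, which encodes p27, the inhibitor usually controlled through protein turnover, had log2 signals of 6.30, 6.14 and 6.37 with vehicle and 6.30, 6.49 and 6.41 with imatinib. The groups overlapped, and 2 of its 3 probes were detected on no array. The log2 change of 0.13 ± 0.12 (SE, adjusted p = 0.484, limma) has a 95% interval of -0.15 to 0.42, which at this dim signal understates any fold.

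The INK4 genes moved in opposite directions in their means. Cdkn2c had log2 signals of 9.28, 8.34 and 8.81 with vehicle and 9.82, 9.78 and 9.87 with imatinib. The imatinib arrays lay within 0.09 log2 units of each other and above all vehicle arrays, which spread over 0.94. The log2 change was 1.01 ± 0.24 (SE, 95% interval 0.44 to 1.58, adjusted p = 0.0743, limma), and the other probe changed by 0.97.

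Cdkn2d had log2 signals of 8.30, 7.90 and 7.83 with vehicle and 7.38, 7.40 and 7.66 with imatinib. All imatinib arrays were below all vehicle arrays, by a margin of 0.17 log2 units. The log2 change was -0.53 ± 0.17 (SE, 95% interval -0.93 to -0.13, adjusted p = 0.117, limma). The remaining INK4 genes, named here outside the rule for named genes, were not called: no probe of Cdkn2a passed the detection filter, and Cdkn2b changed by 0.39 ± 0.38 (SE, adjusted p = 0.537).

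The calls on Ccnd1, Ccnd3 and Cdkn1c rest on nearly every array. Without vehicle 1, vehicle 3, imatinib 1 or imatinib 3 no member passed and no gene of the whole array passed (limma), while an unadjusted p under 0.05 was found for 5 or 6 of the 9 members and for 16.6% to 19.8% of all genes. Without vehicle 2, 5 members passed, with Ccnd2 (adjusted p = 0.0333) and Cdkn2c (adjusted p = 0.0484) joining the 3, but calls grew over the whole array too, to 9.37% of all genes. Without imatinib 2, only Ccnd3 and Cdkn1c passed among the members, and 2% of all genes. No member passed without a detection filter or with the replicate number as a block. With a normexp offset of 1 in place of 16, only Cdkn1c passed, with an adjusted p of 0.0515 for Ccnd1 and 0.0522 for Ccnd3. The direction of all 3 was the same under all 20 alternatives, with log2 changes from -1.348 to -0.965 for Ccnd1, -1.225 to -0.909 for Ccnd3 and 1.86 to 2.21 for Cdkn1c. Alternatives that alter only the detection filter, block, threshold or variance model of the genes (trend or robust fit) left these estimates at their reported values. Array weights moved them. Leaving out 1 array could hardly reverse groups that do not overlap. In those settings an equal direction was largely fixed in advance.

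**Figure D3:**
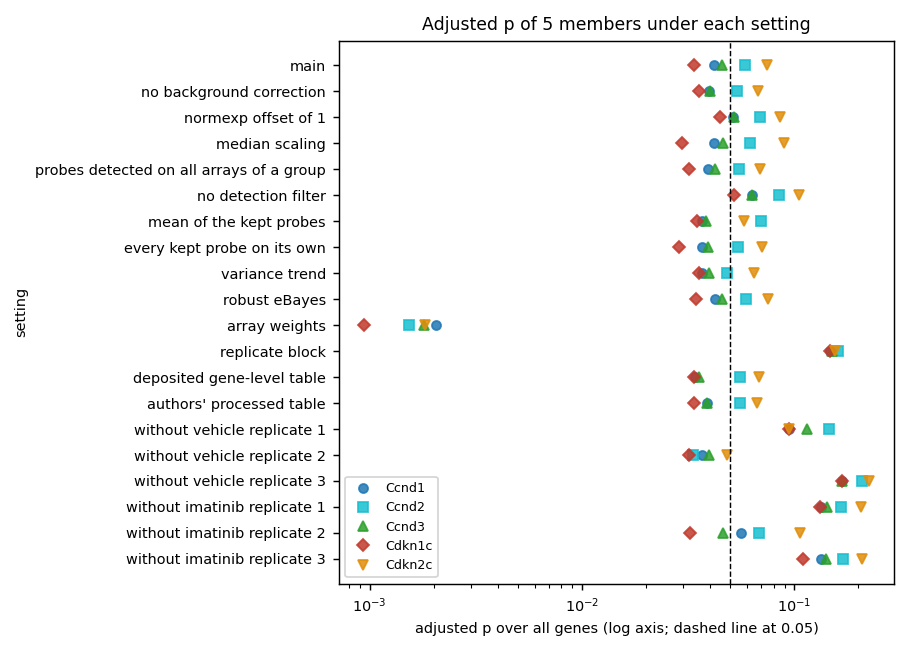
Adjusted p over all genes (log axis, dashed line at 0.05) of 5 members under the reported setting and 19 alternatives; the looser threshold of 0.10, which leaves the fit as it is, is not drawn. Ccnd1, Ccnd3 and Cdkn1c lie left of the line in most settings and right of it with the replicate block, without a detection filter and without vehicle 1, vehicle 3, imatinib 1 or imatinib 3 (Ccnd1 and Ccnd3 also with an offset of 1, and Ccnd1 without imatinib 2), while Ccnd2 and Cdkn2c lie right of it in most.

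Proliferation genes were lower beside the cyclins. Of 19 tested genes of the list 6 fell and 13 were not called, with a lower mean in all 19. Over all genes 1.05% were called lower and 45.7% had a lower mean. Their median log2 change was -0.76, against 0.04 over all genes. Ccnb1, the cyclin of entry into mitosis, fell 2.72-fold (adjusted p = 0.0338, limma), from log2 signals of 9.12, 8.65 and 8.89 to 7.35, 7.37 and 7.61. Its kinase Cdk1 also fell 2.72-fold and the centromere histone gene Cenpa 2.33-fold. With each gene centred on its mean, the average of the list lay between 0.30 and 0.67 on the vehicle arrays and between -0.54 and -0.34 on the imatinib arrays, highest on vehicle 1, where all 3 D-type cyclins were highest too. The list was assembled with earlier results of these data known and is not independent evidence of its direction.

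**Figure D4:**
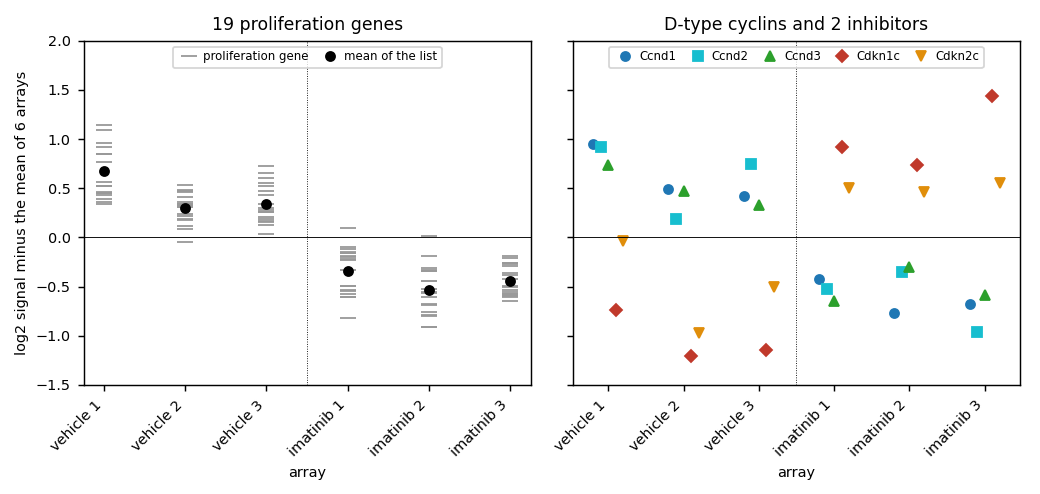
Log2 signal minus the mean of the 6 arrays, by array, for the 19 tested proliferation genes (left, grey, with the mean of the list in black) and for 3 D-type cyclins and 2 inhibitors (right). The list mean and the cyclins are above 0 on all vehicle arrays and below 0 on all imatinib arrays, and Cdkn1c and Cdkn2c the reverse.

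No gene passed among the partners of the D-type cyclins in the RB and E2F pathway. Of 23 listed genes 19 were tested, 12 with a lower and 7 with a higher mean and a median log2 change of -0.19. Groups did not overlap in 7 that were lower, Ccne2 among them, and 1 that was higher, against 14.5% and 17.4% of all genes. The genes with the smallest p were the E-type cyclins, which act with CDK2 after the D-type cyclins: Ccne2 (adjusted p = 0.0547, limma) was detected on all vehicle arrays and on no imatinib array, which puts it at least 1.28-fold lower, with measured log2 means of 5.40 and 4.68. It passed the filter through the vehicle group alone. Ccne1, detected on all arrays, differed by -0.91 ± 0.18 (SE, adjusted p = 0.0596). For Ccne1 the vehicle arrays read 6.73, 6.17 and 6.33 and the imatinib arrays 5.59, 5.28 and 5.63, so the groups did not overlap.

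Among 10 tested genes of the turnover of D-type cyclins and p27, none passed and the median log2 change was 0.05. Fbxo31, which encodes a ubiquitin ligase subunit that targets cyclin D1 in human cells, changed by 0.43 ± 0.14 (SE, adjusted p = 0.12, limma). Usp2, a deubiquitinase of cyclin D1, changed by 1.68 ± 0.66 (adjusted p = 0.173), with log2 signals from 6.15 to 7.62 with vehicle and from 7.38 to 9.82 with imatinib.

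None of 19 tested transcription factors known to act on these genes passed, and their median log2 change was 0.16. Foxo1, a forkhead factor that growth factor signalling keeps out of the nucleus, changed by 0.43 ± 0.12 (SE, adjusted p = 0.093, limma), and the Notch target Hey1 by 0.52 ± 0.18 (adjusted p = 0.134). Foxo1 read 6.99, 6.93 and 7.13 with vehicle and 7.49, 7.33 and 7.53 with imatinib, without overlap. No probe of Myc passed the detection filter.

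The p53 targets did not move together. Of 18 tested, Plk2, a polo-like kinase, rose 1.96-fold, with log2 means of 6.29 and 7.26 and an adjusted p of 0.0471 (limma). The other 17 were not called, and of all 18 the mean was lower in 12 and higher in 6, with a median log2 change of -0.18. Among 16 tested imprinted genes, the class to which Cdkn1c belongs, Mest fell 2.74-fold (log2 change -1.46 ± 0.20 SE, adjusted p = 0.0417), 15 were not called and 10 lay higher on average, with a median of 0.44. Mest and Cdkn1c moved in opposite directions, and a relation of direction to the parental allele was not tested.

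Markers of some other cells differed between the groups. For comparison, 0.523% of all genes were called higher and 1.05% lower. Groups did not overlap in 17.4% of all genes that were higher and 14.5% that were lower, and 45.7% had a lower mean. All 8 tested endothelial markers had a higher mean with imatinib, 2 of them called, with a summed signal of 2740 to 4330 on vehicle and 4550 to 5580 on imatinib arrays, and probes of Kdr and Tie1 did not pass the detection filter. The 4 tested markers of enteric glia and neurons were also higher, 2 of them called (summed signal 189 to 243 and 397 to 481), with Gfap, S100b and Chat below the filter. All 6 tested B cell markers had a higher mean (282 to 397 and 645 to 981), with Ms4a1 and Pax5 below the filter. The 2 called were Cd79a and Vpreb3. Vpreb3 was detected on no vehicle array and passed the filter through the imatinib group alone, so it had to be higher. All 7 tested T cell markers had a lower mean, none called and 5 without overlap (3390 to 3590 and 1740 to 2580), with Cd4 below the filter. Cd2 (log2 change -0.04) and Cd5 (-0.29) had overlapping groups. The 3 tested of 6 neutrophil markers did not follow the groups evenly: after centring, their mean was 3.41 on imatinib 3 but -0.33 on imatinib 2 and 0.80 on imatinib 1, and -1.64, -1.60 and -0.63 on the vehicle arrays (summed signal 132 to 237 with vehicle and 305 to 6290 with imatinib), with none called. Of 7 tested macrophage markers 6 were lower and none was called (12100 to 13300 and 6930 to 11100). All 7 tested smooth muscle markers had a higher mean with imatinib (median log2 change 0.6), none called and 1 free of overlap. The smooth muscle list overlapped between the groups, with a centred mean on vehicle 2 (0.34) above that on imatinib 2 (0.18) and imatinib 3 (0.06). The part of these cells in the values of Cdkn1c and the D-type cyclins was not tested.

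The genes closest to each called member were found by the root mean square difference of log2 signals over the 6 arrays after centring each gene on its own mean. Genes with placeholder names (clone, RIK, LOC or accession) were left out, so a nearer one may exist among them. Closest to Ccnd1 were Cep55 (0.068 log2 units), which acts in the final cut between daughter cells, the kinetochore gene Spc25 (0.085) and Phf11a (0.099). Closest to Ccnd3 were the spindle gene Ska3 (0.055), the dendritic cell chemokine receptor gene Xcr1 (0.07) and Sh3pxd2b (0.083), an adaptor gene of podosomes. Closest to Cdkn1c were the circadian clock gene Per1 (0.25), the B cell chemokine receptor gene Cxcr5 (0.311) and the chemokine gene Cxcl5 (0.314), which are less near to it than the others are to the cyclins. Xcr1 was detected on no imatinib array and Cxcl5 on no vehicle array, so their distances include values not above background and their places in the order are uncertain. The difference between the groups enters this measure, which rests on 6 arrays.

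Between 20684 and 21439 of 45281 probes were detected per array, 45.7% to 47.3%, and the correlation between arrays was 0.945 to 0.986 within and 0.915 to 0.978 between groups. Along the axis of greatest variance in a principal component analysis (60.8%), vehicle 2 was the vehicle array nearest to the imatinib arrays (0.983, against 10.1 for imatinib 2, -60.5 for vehicle 1 and -30.7 for vehicle 3).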

How the data were processed

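Members and gene lists were chosen with earlier results of these data known. For 45281 probes, the file headers of the deposited probe data name an intensity (mean over beads), its bead error, bead number and a detection p-value. The authors deposited these without normalization between arrays. The other deposited tables hold gene-level log2 values, of which 1 is not normalized and 1 has equal medians and was processed by the authors, with Partek named in the submitters' processing notes. The scanner software and genome build are not given in the sources used here.

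Probes were tied to gene-level rows by matching the log2 mean of neighbouring probes on all 6 arrays (within 8e-06, or 6.2e-05 for values of 10 and over), which gave exactly 1 run for each of 31492 rows, and 4 rows with repeated names were left out. Row names were updated through the platform annotation and RefSeq (GRCm38.p6). The annotation gave 1 symbol for 21546 rows and several for 0. Background was corrected with normexp from the detection p-values (limma 3.58.1, R 4.3.3, offset 16, which shrinks folds of dim genes), followed by quantile normalization and log2. Probes with a detection p-value under 0.05 on at least 3 arrays were kept, and the brightest stood for its gene. Groups were compared over all genes with lmFit and eBayes, with no block. The procedure was tested on simulated data. Named genes were the members, up to 3 called genes by smallest p of each pathway list (2 where none was called) and the 3 nearest genes of each called member. Clone, RIK, LOC and accession names were left out of the nearest genes. A beadchip block was planned, but the headers name no chips.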

Additional observations from a re-analysis of the deposited data

How the results depend on the processing

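As reported, 232 genes passed, 3 of them members. Genes called numbered 130 with a normexp offset of 1 (1 member, Cdkn1c), 408 with the mean of the kept probes, 502 of 21395 with every probe on its own, 429 with a variance trend, 382 and 385 on the deposited gene-level and processed tables, 7585 with array weights (8 members; the weights did not fully converge) and 1668 at an adjusted p of 0.10 (5 members). No gene and no member passed without a detection filter (0, limma; 5183 genes at an unadjusted p under 0.05) or with the replicate block (0; 2900 genes unadjusted; adjusted p = 0.147 for Ccnd1 and Cdkn1c and 0.151 for Ccnd3). Leaving out 1 array gave 0 to 1355 genes and 0 to 5 members. At 0 genes, without vehicle 1, vehicle 3, imatinib 1 or imatinib 3, 2854, 2402, 2476 and 2412 genes had an unadjusted p under 0.05. All members kept their direction under all 20 alternatives except Cdkn1b, at -0.012 with array weights. Alternatives that alter only the detection filter, block, threshold or variance model of the genes (trend or robust fit) left the estimates as they were. They could not change a direction, whereas array weights could. Deviations of same-numbered arrays from their group had correlations of -0.112, -0.308 and 0.0188. With 3 arrays per group these cannot show whether equal numbers share an animal, litter or day, and the labels do not say. The block fit also costs degrees of freedom. A block for the beadchip was not run because the headers name no chips. Probe signal over background limits Cdk6 and Cdkn1b.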
